A study of Arabidopsis thaliana with 6 samples.

Results

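Plants attach glucose and other sugars to hormones, flavonoids, coumarins and toxins with UDP-dependent glycosyltransferases, encoded by UGT genes, and take glucose off again with beta-glucosidases, encoded by BGLU genes. A glucosylated hormone is usually inactive and is stored or transported, often in the vacuole, and a beta-glucosidase can return it to the active form. In leaves the same exchange governs stored defence compounds, which a beta-glucosidase activates when tissue is damaged. Genes of both families were taken by their symbol in the probe annotation, as UGT or BGLU followed by a digit, and only where a probe set was annotated to 1 gene. This gave 67 genes, 47 UGT and 20 BGLU, of the 13356 genes that had such a probe set. Each had 1 probe set, all with the plain suffix _at that marks a probe set designed for 1 transcript. RefSeq lists 58 UGT and 40 BGLU genes by the same symbol rule, so part of each family lies outside the 67.

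Transcript levels were measured on Affymetrix ATH1 arrays in rosette leaves 3 to 6 of Arabidopsis thaliana plants 3 weeks old, grown at 20 °C under 20 h of light and 4 h of dark. Line A6 and wild type had 3 arrays each, which the labels call biological replicates without saying how many plants each held. The series title describes the plant as deficient in N6-adenosine methylation. A6 is known as a single line in which the gene of the mRNA methyltransferase is mutated and its product is supplied from the embryo-active ABI3 promoter. The transcript of that gene is not analysed here. Effects of that line other than low methylation cannot be told apart from it. In whole leaves, fewer cells of a type and less RNA per cell cannot be told apart either. All values were taken as log2 units, although the log base is not given, and all folds rest on that. They are centred on the median of each probe set. Values thus compare arrays for 1 gene and give no level, and no gene could be called present or absent. In a gene whose lines do not overlap, centring places the lowest value of one line and the highest of the other equally far from 0.

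The arrays were not equally alike, which bears on every value that follows. Over all probe sets, A6 replicates 1 and 2 correlated with r = 0.66 and wild-type replicates 2 and 3 with r = 0.65. A6 replicate 3 correlated with the other A6 arrays with r of 0.31 and 0.46, and wild-type replicate 1 with the other wild-type arrays with r of 0.22 and 0.23. Those same 2 arrays had high hybridization spike-ins, with a mean of 0.41 and 0.40 log2 units over 18 spike-in probe sets, against -0.37 to 0.02 on the other 4. The 3′ minus 5′ difference of the Arabidopsis control probe sets, a sign of RNA quality, separated the lines, at -0.08 to -0.03 in A6 and 0.03 to 0.09 in wild type. A second version of the same controls on the array did not, at -0.01 to 0.04 in A6 and -0.02 to 0.15 in wild type. Its value of 0.15 was that of wild-type replicate 1 alone, with -0.02 and -0.003 on wild-type replicates 2 and 3. It thus mainly sets that array apart. Whether RNA quality contributed to the differences was not tested beyond the fits with each of these as a covariate. The labelled tissue could not be checked by level. Of 20 listed markers of leaf, guard cell, trichome, phloem, root hair, meristem and seed, 6 were measured under a name. One of them, AT1G22690 of the guard cell list, was lower in A6 (log2 difference -0.99, SE 0.11, adjusted p = 0.00252), while the other guard cell marker FMA had 0.15 (adjusted p = 0.458).

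Genes of both families went both ways in A6. Of the 47 UGT genes 4 rose and 3 fell, and of the 20 BGLU genes 1 rose and 2 fell, with 57 of the 67 genes not passing an adjusted p of 0.05 in limma. The 10 calls are 14.9% of the members, where 9.77% of all 22746 probe sets were called (5.03% higher and 4.74% lower). The median log2 difference, A6 minus wild type, was -0.01 over UGT genes and 0.05 over BGLU genes, and -0.02 over all probe sets. Above 0 lay 35 of the 67 differences, against 10251 of 22746 probe sets (45.1%). An unadjusted p under 0.05 in limma was found in 19 of the 67 members, against 5517 of 22746 probe sets (24.3%). The values of the lines did not overlap in 29 of the 67 members, 16 higher and 13 lower in A6. Over all probe sets this held in 6586 of 22746, which is 29.0% (13.1% higher and 15.9% lower). A difference of at least 1 log2 unit, a 2-fold change, was seen in 7 of the 67 members, 6 UGT genes and 1 BGLU gene. Over all probe sets it was seen in 668 of 22746 (2.94%).

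These counts moved with single arrays, as did the calls over all probe sets. In place of 9.77%, the share of all probe sets called was 3.37%, 4.37% and 6.81% with A6 replicates 1, 2 and 3 omitted in turn. It was 15.3%, 4.85% and 5.37% with the wild-type arrays omitted in turn, where lower calls went from 1079 to 1885 once the first was omitted. UGT rises numbered 2 when replicate 1 or 2 of A6 was omitted, and also when replicate 2 or 3 of wild type was. UGT falls numbered 0 once A6 replicate 1 was omitted, 1 with A6 replicate 2 or 3 or the second wild-type array omitted, and 7 with the first wild-type array omitted. BGLU falls numbered 1 without wild-type replicate 1 and 0 without any other single array, and BGLU rises numbered 2 without wild-type replicate 1. Without both arrays with high spike-ins, 5 UGT genes rose and 8 fell and 2 BGLU genes rose and 1 fell, while 15.2% of all probe sets were called. With the first 3′ minus 5′ covariate none of the 67 passed and only 9 of 22746 probe sets did. In that fit UGT71C5, UGT85A4 and UGT71C3, all negative otherwise, had positive differences of 0.042, 0.33 and 1.09, and that of UGT87A2 was 4.17 (adjusted p = 0.0835). With the second version as covariate 6 UGT genes rose, 6 fell, 2 BGLU genes rose and 2 fell, while 14.5% of all probe sets were called.

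**Figure D1:**
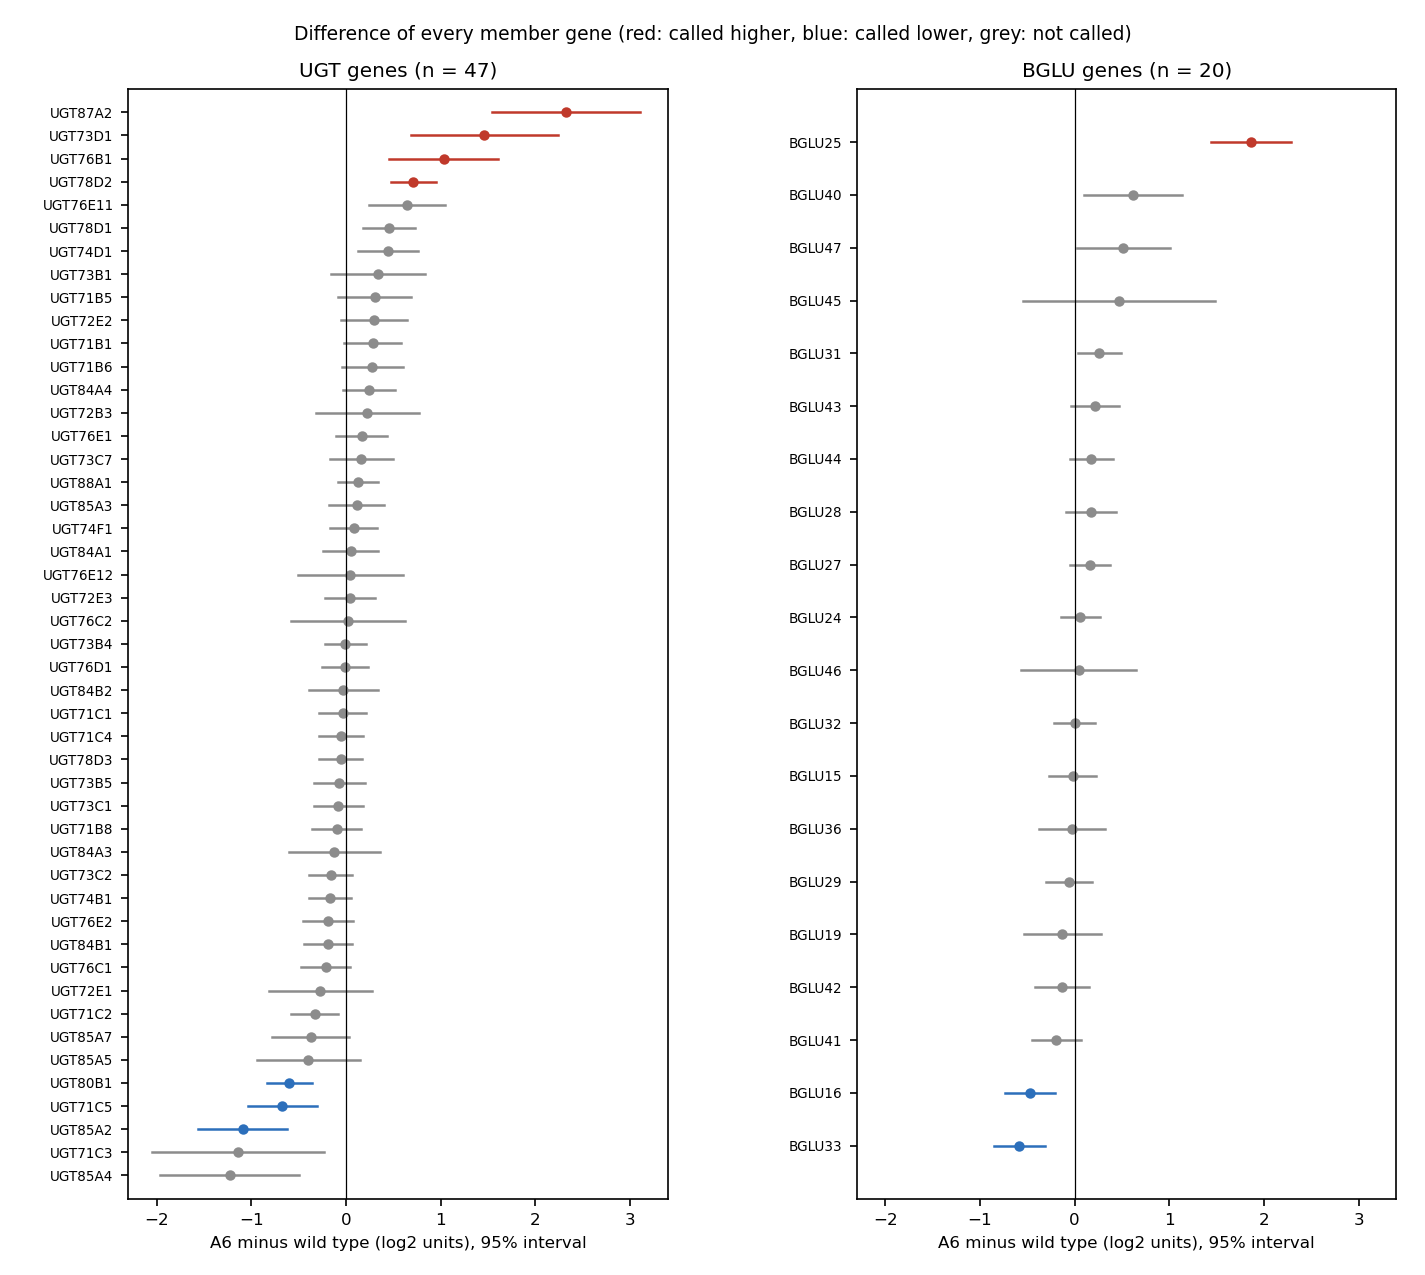
Log2 difference of A6 minus wild type (x axis, log2 units) for each of the 47 UGT genes (left) and 20 BGLU genes (right), with its 95% interval from limma. Red marks genes called higher in A6 and blue genes called lower. The medians lie near 0 (-0.01 and 0.05) and UGT87A2 and BGLU25 stand at the upper end with 2.32 and 1.86.

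The largest difference among all 67 genes was that of UGT87A2 (AT2G30140, chromosome 2), a glycosyltransferase known to promote flowering. Its values were 1.21, 1.52 and 0.65 on A6 replicates 1 to 3 and -1.95, -0.99 and -0.65 on wild-type replicates 1 to 3. All A6 arrays lay above all wild-type arrays, with wild-type replicate 1 the lowest of the 6. The A6 mean was 1.13 ± 0.44 and the wild-type mean -1.20 ± 0.67 (SD, n = 3 each). This was a 5.01-fold rise (log2 difference 2.32, SE 0.34, adjusted p = 0.00599). The call held without any 1 array, with differences of 1.95 to 2.59.

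BGLU25 (AT3G03640, chromosome 3) had the lowest adjusted p of all members and was the 1 beta-glucosidase gene that rose. Its values were 1.21, 1.12 and 0.61 on the A6 arrays and -0.61, -1.02 and -1.01 on the wild-type arrays. The gap between the lines exceeded the spread within either, with means of 0.98 ± 0.32 (SD, n = 3) and -0.88 ± 0.23 (SD, n = 3). The rise was 3.64-fold (log2 difference 1.86, SE 0.18, adjusted p = 0.00154), and the call held without any 1 array (highest adjusted p = 0.0122).

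In the flavonoid group, UGT78D2 (AT5G17050), which attaches glucose to the 3 position of flavonols and anthocyanidins, rose. Its values were 0.28, 0.40 and 0.53 in A6 and -0.28, -0.34 and -0.31 in wild type. The wild-type arrays lay within a narrow band, with an SD of 0.03 (n = 3), and all A6 arrays lay above it. The rise was 1.64-fold (log2 difference 0.71, SE 0.10, adjusted p = 0.00577) and held without any 1 array.

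UGT78D1 (AT1G30530), which attaches rhamnose to flavonols, had 0.44, 0.34 and 0.09 in A6 and -0.18, -0.09 and -0.21 in wild type. The lines did not overlap, but the difference of 0.45 (SE 0.12) narrowly missed the threshold (adjusted p = 0.051). It passed without A6 replicate 3, where it was 0.55 (adjusted p = 0.0333). UGT78D3 (AT5G17030), which attaches arabinose to flavonols, had a difference of -0.05 (SE 0.10, adjusted p = 0.814). UGT79B1 (annotated as UF3GT), an anthocyanin glycosyltransferase, and UGT79B6 (AT5G54010), which extends flavonol glucosides, carry other symbols in the annotation and are not counted among the 67. Their differences were -0.04 (adjusted p = 0.913) and 0.11 (adjusted p = 0.704). On the release side, BGLU15 (AT2G44450), which hydrolyses flavonol glycosides, had -0.02 (SE 0.11, 95% interval -0.27 to 0.23). Of 20 listed genes that make phenylpropanoids and flavonoids 2 were measured under a name, the reductase DFR with 0.22 (adjusted p = 0.421) and the anthocyanin malonyltransferase AT5MAT with -0.30 (adjusted p = 0.143).

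Among 11 UGT genes known to act on hormones, 1 rose, 1 fell and 9 did not pass, with a median difference of 0.02. For comparison, 9.77% of all probe sets were called (5.03% higher and 4.74% lower), so 2 calls among 11 genes say little about the group. UGT76B1 (AT3G11340), which glucosylates salicylate, N-hydroxypipecolate and isoleucic acid and so restrains defence, was the gene that rose. Its values were 1.21, 1.07 and 0.16 in A6 and -0.16, -0.22 and -0.26 in wild type. A6 replicate 3 lay much nearer to wild type than to the other A6 arrays. The difference was 1.03 (SE 0.25, adjusted p = 0.0399), a 2.04-fold rise. The call did not hold when replicate 1 or 2 of A6 was omitted (adjusted p = 0.135 in both cases), nor when the second or the third wild-type array was (0.116 and 0.11). With A6 replicate 3 omitted the difference was 1.36 (adjusted p = 0.0017).

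UGT74F1 (AT2G43840), another salicylate glucosyltransferase, had a difference of 0.08 (SE 0.11, 95% interval -0.17 to 0.33). The interval of UGT76B1 was 0.46 to 1.61, and the difference between the 2 genes was not tested. Of 18 listed genes of salicylate and pipecolate metabolism 3 were measured under a name, of which 2 rose and 0 fell. Over all probe sets 5.03% were called higher, but this list was chosen with earlier results of these data known. Its count is thus no test of the pathway. WES1, which conjugates salicylate and auxin to amino acids, had 0.83 (SE 0.14, adjusted p = 0.0106), and AT5G52810 had 2.07 (SE 0.17, adjusted p = 0.000722), a 4.21-fold rise. In both, A6 replicate 3 was the lowest A6 array, as in 4 of the 5 members that rose, UGT76B1 among them. This does not link these genes to each other. The methyltransferase BSMT1, which makes methyl salicylate, had -0.87 with an SD of 0.77 (n = 3) in wild type and did not pass (adjusted p = 0.177).

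For abscisic acid, the genes that passed on the side of conjugation and on that of release both fell. UGT71C5 (AT1G07240), which makes the glucose ester of abscisic acid, had -0.24, -0.19 and -0.19 in A6 and 0.19, 0.38 and 0.82 in wild type. The A6 arrays were close together (SD 0.03, n = 3) and the wild-type arrays spread more widely (SD 0.32, n = 3), without overlap. The difference was -0.67 (SE 0.16, adjusted p = 0.0368), 1.59-fold lower in A6. Leaving out any 1 array other than wild-type replicate 1 removed the call (adjusted p 0.0604 to 0.131), and with the replicate number as a block it was at adjusted p = 0.0509.

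BGLU33 (AT2G32860), a vacuolar beta-glucosidase known to free abscisic acid from its glucose ester, had -0.24, -0.15 and -0.29 in A6 and 0.15, 0.49 and 0.41 in wild type. All A6 arrays lay below all wild-type arrays. The difference was -0.58 (SE 0.12, adjusted p = 0.0206), 1.5-fold lower in A6, and it lost its call without any 1 array other than wild-type replicate 1 (adjusted p 0.057 to 0.0898). UGT71B6 (AT3G21780), which also glucosylates abscisic acid, had 0.28 (SE 0.14, adjusted p = 0.281) and its close relative UGT71B8 -0.10 (SE 0.11, adjusted p = 0.669). The 13 listed genes of abscisic acid synthesis and breakdown were not analysed here.

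No measured glycosyltransferase gene of the other hormones passed. For auxin, UGT74D1 (AT2G31750) had 0.44 (SE 0.14, adjusted p = 0.0879), with A6 values of 0.34, 0.10 and 0.11 above all wild-type values of -0.16, -0.10 and -0.51. UGT84B1, which makes the glucose ester of indole-3-acetic acid, had -0.19 (SE 0.11, adjusted p = 0.347). The cytokinin N-glucosyltransferase genes UGT76C1 and UGT76C2 had -0.22 (SE 0.11) and 0.02 (SE 0.26), and UGT73C1, which glucosylates cytokinins at an oxygen, had -0.08 (SE 0.11). UGT76E1, which acts on jasmonates, had 0.17 (SE 0.12). The 17 listed genes of cytokinin synthesis and breakdown were not analysed here.

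**Figure D2:**
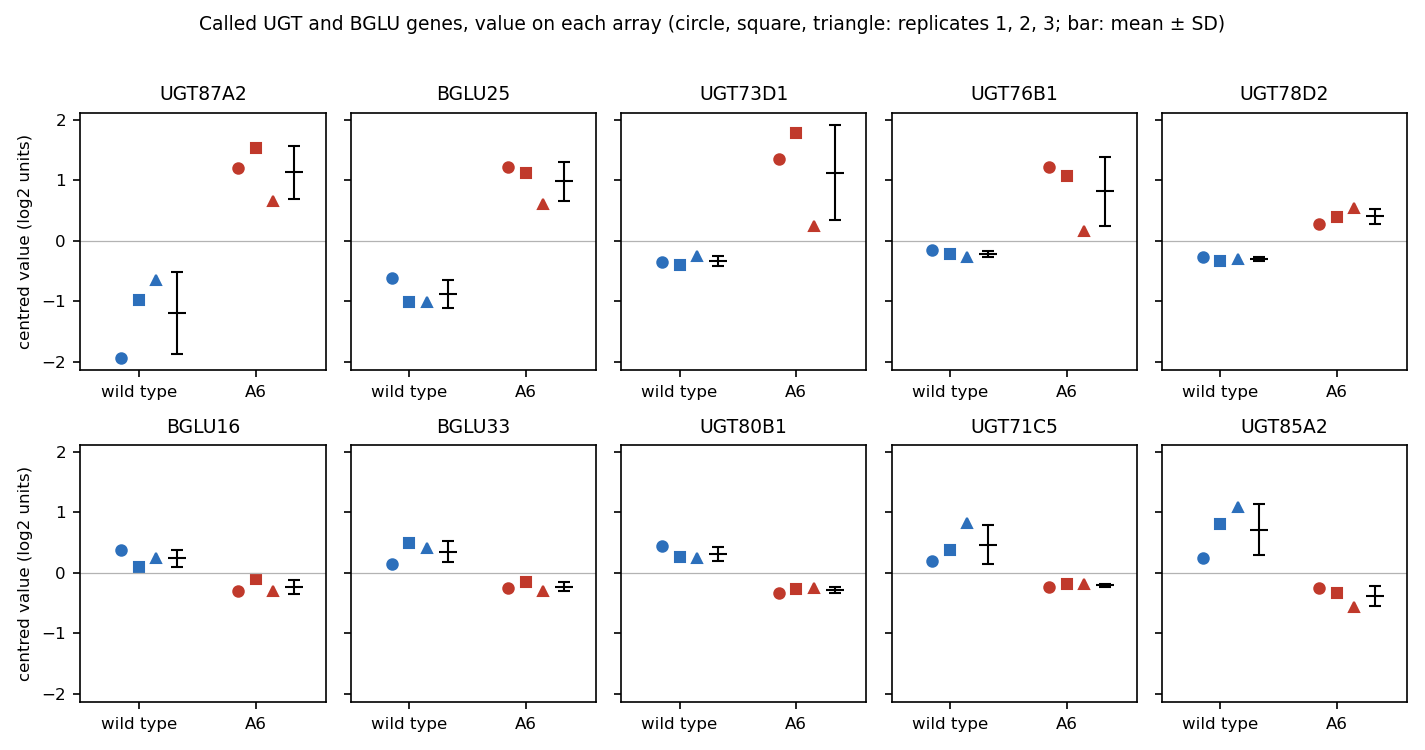
Centred value (y axis, log2 units) of the 10 called genes on each array, wild type in blue and A6 in red, with circle, square and triangle for replicates 1, 2 and 3 and the bar for mean ± SD (n = 3). The lines do not overlap in any panel. A6 replicate 3 (red triangle) is the A6 value nearest to wild type in 4 of the 5 genes that rose, all but UGT78D2.

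UGT73D1 (AT3G53150, chromosome 3) was the fourth UGT gene that rose. Its values were 1.35, 1.78 and 0.25 in A6 and -0.36, -0.40 and -0.25 in wild type. As in UGT76B1, A6 replicate 3 stood between the other A6 arrays and wild type, and the SD of A6 was 0.79 against 0.08 in wild type (n = 3 each). The rise was 2.75-fold (log2 difference 1.46, SE 0.34, adjusted p = 0.0333). The call did not hold when replicate 1 or 2 of A6 was omitted (adjusted p = 0.127 and 0.0864), nor when the second or the third wild-type array was (0.108 and 0.0828). With A6 replicate 3 omitted the difference was 1.90 (adjusted p = 0.00155).

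UGT80B1 (AT1G43620), which glucosylates membrane sterols and is known as TRANSPARENT TESTA 15 from its pale seeds, fell. Its values were -0.33, -0.27 and -0.24 in A6 and 0.45, 0.26 and 0.24 in wild type, so both lines were tight and apart. The difference was -0.60 (SE 0.10, adjusted p = 0.0109), 1.51-fold lower in A6, and it missed the threshold once A6 replicate 1 was omitted (adjusted p = 0.0636). The other sterol glucosyltransferase gene, UGT80A2, annotated as SGT (AT3G07020), had -0.39 (SE 0.13, adjusted p = 0.102), with A6 values of -0.15, -0.30 and -0.02 below wild-type values of 0.02, 0.31 and 0.36.

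The UGT85A subfamily held the third UGT gene that fell and the member closest to the threshold. UGT85A2 (AT1G22360) had -0.25, -0.33 and -0.56 in A6 and 0.25, 0.80 and 1.08 in wild type. No A6 array reached a wild-type array, and wild-type replicate 1 was the nearest to A6. The difference was -1.09 (SE 0.20, adjusted p = 0.0159), 2.13-fold lower, and omitting any single A6 array, or the second wild-type array, took the call away (adjusted p 0.0543 to 0.0655).

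UGT85A4 (AT1G78270) had -0.42, -0.06 and -0.59 in A6 and 0.06, 1.297 and 1.25 in wild type. Its difference of -1.23 (SE 0.32) was the largest negative one of all members and lay just outside the threshold (adjusted p = 0.05004). Wild-type replicate 1 lay beside the A6 arrays, and without it the difference was -1.63 (adjusted p = 0.000983). UGT85A5 and UGT85A7 had -0.40 (SE 0.24, adjusted p = 0.371) and -0.37 (SE 0.18, adjusted p = 0.248), and UGT85A3 had 0.11 (SE 0.13). Thus 4 of the 5 measured members had lower values in A6 and 1 passed. Differences below 0 were found in 12495 of all 22746 probe sets, and 9.77% of all were called.

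The UGT71 subfamily, the largest measured with 9 genes, had 6 members with lower and 3 with higher values in A6, of which UGT71C5 passed. Over all probe sets 12495 of 22746 differences lay below 0 and 9.77% were called. UGT71C3 (AT1G07260) had -0.43, -0.06 and -0.13 in A6 and 0.06, 0.84 and 1.89 in wild type. Wild type ranged more widely than A6 (SD 0.92 against 0.20, n = 3 each), and the difference of -1.14 (SE 0.39) did not pass (adjusted p = 0.119). Without wild-type replicate 1 it was -1.57 (adjusted p = 0.00897), and without wild-type replicate 3 it was -0.66.

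In the UGT76 subfamily, 5 of 8 genes had higher values in A6 and UGT76B1 passed. Of all probe sets 45.1% had a difference above 0 and 9.77% were called. UGT76E11 (AT3G46670) had 0.07, 0.52 and 0.56 in A6 and -0.07, -0.18 and -0.54 in wild type. The lines were apart, but the difference of 0.65 (SE 0.17) did not pass (adjusted p = 0.0565). It passed with wild-type replicate 1 omitted, where it was 0.74 (adjusted p = 0.0288). In the remaining subfamilies no gene beyond those described passed: all 4 UGT72 genes, 5 UGT84 genes and 3 UGT74 genes, and 6 of 7 UGT73 genes.

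Genes acting on lignin precursors and other phenylpropanoids did not pass on either side. The 7 UGT genes of that kind, among them UGT72E1, UGT72E2 and UGT72E3 for monolignols and UGT84A1, UGT84A3 and UGT84A4 for hydroxycinnamates, had differences from -0.27 to 0.30, and in each the 95% interval lay within a 2-fold change in either direction. The monolignol glucosidase genes BGLU45, BGLU46 and BGLU47 had 0.47 (SE 0.44), 0.04 (SE 0.26) and 0.51 (SE 0.21), all positive and none called. BGLU45 and BGLU46 were uneven among the A6 arrays, with A6 replicate 2 at 1.19 and 0.78 and A6 replicate 3 at -0.14 and -0.35.

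BGLU16 (AT3G60130) was the second beta-glucosidase gene that fell. Its values were -0.30, -0.10 and -0.31 in A6 and 0.38, 0.10 and 0.25 in wild type. The lines were separated by a narrow gap, and the difference of -0.48 (SE 0.11, adjusted p = 0.0394) missed the threshold whichever of the 6 arrays was omitted (adjusted p 0.0513 to 0.151). BGLU40 (AT1G26560) had the second highest difference of the family, 0.62 (SE 0.22, adjusted p = 0.133). Its A6 values were 0.13, -0.04 and 0.20 and its wild-type values 0.04, -0.74 and -0.86, so that wild-type replicate 1 overlapped with A6. It passed with that array omitted, where the difference was 0.90 (adjusted p = 0.00281).

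No measured gene for a beta-glucosidase of stored defence compounds passed, but few such genes were measured. BGLU42, known in roots for the release of coumarins, had -0.13 (SE 0.12), BGLU28, induced by sulfur shortage, had 0.17 (SE 0.11), and BGLU36, grouped with the myrosinases that cleave glucosinolates, had -0.03 (SE 0.15). PYK10, the main beta-glucosidase of root endoplasmic reticulum bodies, is BGLU23 under another symbol and had -0.12 (SE 0.17, adjusted p = 0.735). It was the 1 of 11 listed glucosinolate breakdown genes measured under a name. The others, among them TGG1, TGG2 and PEN2, were not analysed here. On the conjugation side of glucosinolates, UGT74B1, which adds the glucose of the glucosinolate core, had -0.17 (SE 0.09, adjusted p = 0.339). BCAT4, the 1 of 20 other listed glucosinolate synthesis genes measured under a name, had 0.15 (SE 0.16, adjusted p = 0.669). Of 22 listed genes that supply UDP-sugars only USP, a UDP-sugar pyrophosphorylase, was measured under a name, at 0.24 (SE 0.11, adjusted p = 0.226). The beta-galactosidase BGAL16 had -0.32 (SE 0.12, adjusted p = 0.133).

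The 57 genes that did not pass had differences from -1.23 to 0.65. In 51 of these the 95% interval lay between -1 and 1, so that a 2-fold change in either direction lay outside it, and the intervals of the other 6 reached from -2.05 to 1.48. UGT85A4, UGT71C3, UGT76E11, BGLU40 and BGLU47 were the 5 among them with a difference of at least 0.5 in size.

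Many members lie beside each other in the genome. With at most 2 other protein-coding genes between them, in the RefSeq gene order of assembly TAIR10.1, 42 of the 67 genes formed 18 runs of neighbours. Of the 10 called genes 5 lay in 5 different runs, and 0 runs held 2 calls. UGT73D1, with 1.46, lies next to UGT73C7 (AT3G53160), with 0.16 (SE 0.14, adjusted p = 0.583). BGLU16, with -0.48, lies next to BGLU27 (AT3G60120), with 0.17 (SE 0.09, adjusted p = 0.33).

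Both runs of more than 2 genes with a call lie on chromosome 1. In the run UGT71C5, UGT71C4 and UGT71C3 the outer genes had -0.67 and -1.14 and the middle one -0.05 (SE 0.10). In the run UGT85A7, UGT85A2, UGT85A5 and UGT85A3 the differences were -0.37, -1.09, -0.40 and 0.11. UGT78D2, with 0.71, is separated by 1 gene from UGT78D3, with -0.05. Differences between neighbours were not tested, and a call in one gene of a run and not in the next does not show that the 2 differ.

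**Figure D3:**
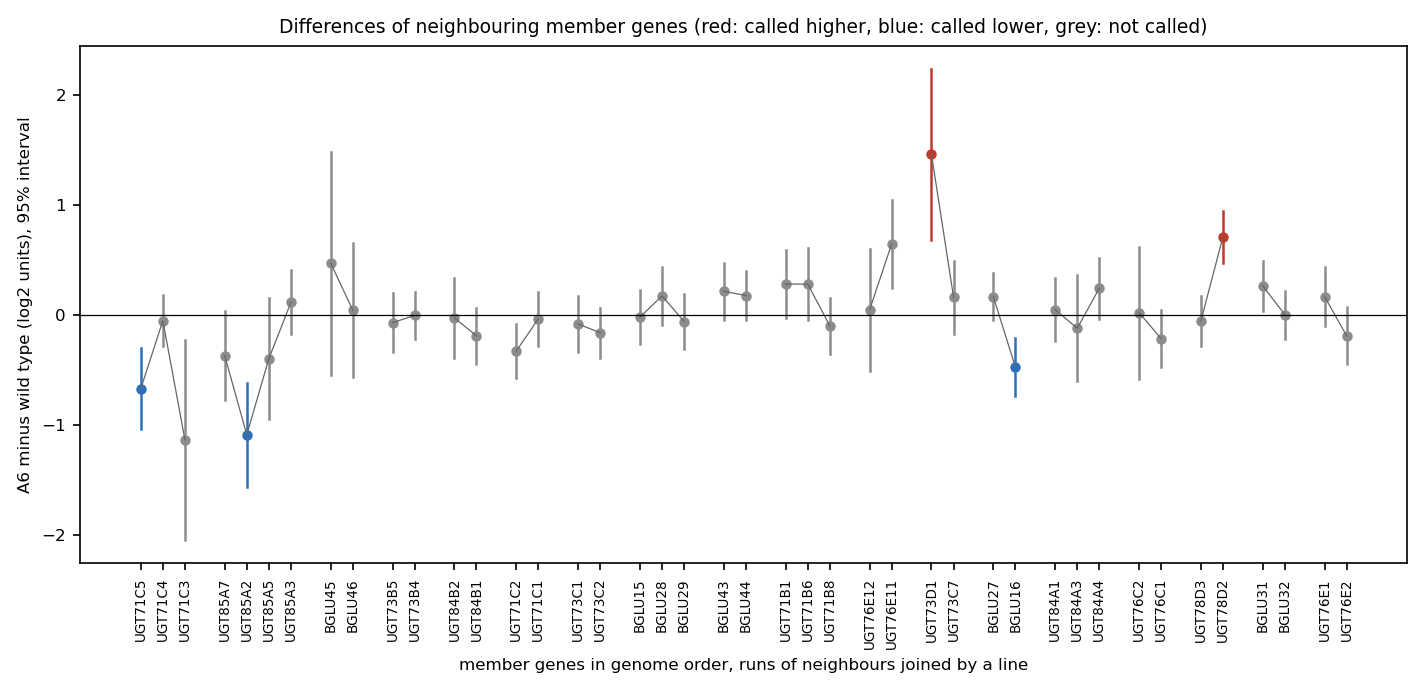
Log2 difference of A6 minus wild type (y axis, log2 units) with its 95% interval for the 42 members in 18 runs of neighbouring genes, in genome order along the x axis, with lines joining the genes of a run. Red marks genes called higher and blue genes called lower. No run holds 2 called genes.

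**Figure D4:**
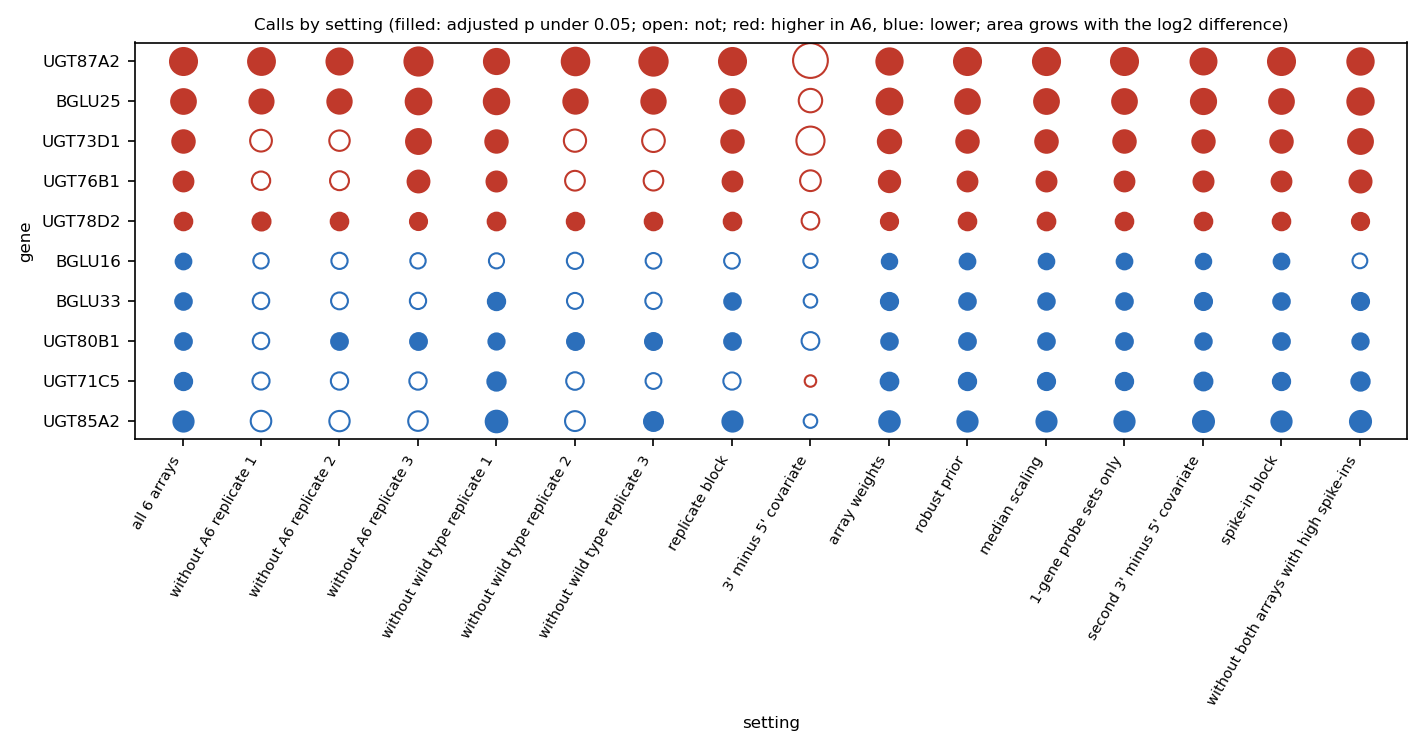
The 10 called genes (y axis) under each setting (x axis). Filled circles passed an adjusted p of 0.05 and open ones did not, red is higher and blue lower in A6, and the area grows with the size of the log2 difference. BGLU25, UGT78D2 and UGT87A2 are filled in every column but that of the first 3′ minus 5′ covariate.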

How the data were processed

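Per the submitters' processing notes the authors made the values with RMA, whose version and log base are not given in the sources used here. The deposited values, taken as log2 because RMA gives log2, carry a centring that no source describes: every probe set had a median of 0, within 5.0e-07. The log base thus remains assumed, as do the folds that rest on it, and how the centring was made is unknown. Higher values mean more signal. Medians over all probe sets ran from -0.013 to 0.022 across arrays (A6 -0.012, -0.013 and 0.0068, wild type 0.022, -0.0045 and 0.0070). The number of arrays limits the precision.

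Of 22810 probe sets, 13513 were annotated to 1 gene, 503 to several and 8730 to none in the table used here. RefSeq names (TAIR10.1) matched all 67 members. The fit ran over 22746 probe sets, without the 64 controls, in limma 3.58.1 and R 4.3.3 (lmFit and eBayes, line as the only term, two-sided), with Benjamini-Hochberg adjustment over all of them and a threshold of 0.05. "Rose", "fell" and "called" mean past it. Differences subtract wild type from A6, SE is their standard error, and intervals are 95% intervals. All adjusted p-values are from limma. The fit was tested on simulated data.

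Named genes are all called members, members with a difference of at least 1, those of the hormone, flavonoid, glucosinolate and abscisic acid release groups, neighbours of called members, and from each gene list the called genes or up to 2 with the lowest p. UGT76E11, BGLU40 and the other members given with values were added after their values were seen. Members and lists were chosen with earlier results of these data known. The 8 lists held 122 loci and, by symbol only, the BGAL and BXL genes. From these lists 9 genes were measured under a name, of which BGAL16 was taken by its symbol. Alternatives were leaving out each array, the replicate number as a block, control-based covariates, array weights, a robust prior, median scaling, and a test over 1-gene probe sets only. The spike-in settings and the second covariate were chosen after seeing the data. The deviations of same-numbered arrays correlated only weakly (r of -0.13, 0.18 and -0.16). The highest r across the lines was 0.30, between A6 replicate 3 and wild-type replicate 1, the arrays with high spike-ins. With so few arrays per line, and unequal ones, these values cannot show whether the numbers pair the samples. Whether they do remains unknown.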

Additional observations from a re-analysis of the deposited data

Results flagged for a closer look

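A probe set annotated to both UGT73B2 and UGT73B3, and so assigned to neither and left out of the counts, differed between the lines. Its values were 0.83, 1.07 and 0.62 in A6 and -1.64, -0.62 and -0.84 in wild type, a log2 difference of 1.87 (SE 0.25, adjusted p = 0.0047 in limma) with no overlap. Among the members only UGT87A2 had a larger difference. The 3 other probe sets annotated to a UGT or BGLU gene and a further gene had differences of -0.09, 0.07 and 0.22, and none was called.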

How the results depend on the processing

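Of the 10 called genes, 3 (BGLU25, UGT78D2 and UGT87A2) kept their call without any 1 array, 1 kept it in 5 of 6 cases, 3 in 2, 2 in 1 and BGLU16 in 0. Leaving out 1 array gave 2 to 5 UGT rises, 0 to 7 UGT falls, 1 to 2 BGLU rises and 0 to 1 BGLU falls, with 3.37% to 15.3% of all probe sets called (9.77% with all arrays). The 3′ minus 5′ covariate, which separates the lines, gave 0 of each, and 0.0396% of all probe sets were called. Under it the sign changed for UGT71C5 (0.042), UGT85A4 (0.33), UGT74D1 (-0.16), UGT71C3 (1.09), UGT76E1 (-0.082), UGT71B8 (0.042), UGT74F1 (-0.16), UGT78D3 (0.020) and UGT76C2 (-0.61). With 1 array left out UGT76C2 ranged from -0.23 to 0.28 and UGT78D3 from -0.086 to 0.0043. The second covariate gave 6 UGT falls and 2 BGLU rises, with 14.5% of all probe sets called. Array weights gave 7 UGT rises, 8 UGT falls and 4 BGLU rises, with 20.6% of all probe sets called. The spike-in block gave 6 UGT rises, 4 UGT falls, 2 BGLU rises and 2 BGLU falls (15.3% of all probe sets), and leaving out the pair of arrays whose spike-ins were high gave 8 UGT falls, 2 BGLU rises and 1 BGLU fall (15.2%). BGLU40 also passed with array weights, the second covariate and both spike-in settings, and UGT76E11 with the second covariate and the spike-in block. With the replicate block there were 4 UGT rises, 3 UGT falls, 1 BGLU rise and 1 BGLU fall (6.71% of all probe sets), and UGT71C5 and BGLU16 lost their calls (adjusted p = 0.0509 and 0.0992) while UGT85A4 passed (0.0431). Median scaling changed no call of a member, and a robust prior or 1-gene probe sets only added UGT85A4. The mean over several probe sets of a gene was not run because each member has 1. The cause of these changes was not tested. Without levels, signal over background could not be given.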
